A study of Mus musculus with 924 samples.

Results

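Penk, Col6a1, Rgs4 and Necab3 were followed across single nuclei of mouse hippocampus, as 4 of the 25392 genes in the deposited table and over all 924 nuclei. The genes were chosen for their values: in nuclei with a dentate granule-like profile they showed the 4 largest differences between 4 weeks and 12 weeks of age among 10630 genes compared. Their levels by age and their on and off states are therefore given as a description, with no test. The only member comparison that the choice did not use, and that is tested, is CA1 against CA2/3 at 12 weeks.

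Penk encodes proenkephalin, a precursor protein that prohormone convertases and carboxypeptidase E cut into Met-enkephalin and Leu-enkephalin, peptides that act on delta and mu opioid receptors. Col6a1 encodes the alpha 1 chain of collagen VI, an extracellular matrix protein assembled from several chains. Rgs4 encodes a regulator of G protein signalling that speeds GTP hydrolysis by G alpha subunits of the i and q families, and so shortens the response of receptors that use them. Necab3 encodes a neuronal calcium-binding protein with an EF hand, known to bind the adaptor encoded by Apba2. Granule cells are the principal neurons of the dentate gyrus (DG); their mossy fibres reach CA3, where pyramidal neurons project on to CA1. Enkephalin and dynorphin, the product of Pdyn, are peptides long known from the granule cells and mossy fibres of rodents.

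Each sample was 1 nucleus, sorted into a well of a plate after microdissection, fixation in RNAlater and a sucrose gradient, and read by a modified Smart-seq2 protocol. At 12 weeks, C57BL/6 mice gave 305 nuclei of DG, 99 of CA1 and 117 of CA2/3. A further 133 nuclei labelled DG and 22 labelled CA came from vGAT-Cre mice, strain Slc32a1tm2(cre)Lowl, in which Cre is driven by the promoter of a GABAergic neuron gene. These mice had received AAV1/2 carrying pAAV-EF1a-DIO-EYFP-KASH, and their labelled nuclei were sorted after 2 weeks. The 4-week set held 113 nuclei of C57BL/6 mice, 35 labelled DG and 78 with no region in their labels. The 2-year set held 135 nuclei of C57BL/6 mice, 63 with no region label and 72 labelled DG. Nuclei of a group whose titles share a number are called a preparation here, 15 in all; the labels do not say whether a number is an animal, so the spread between preparations may be technical. The 4-week and 2-year nuclei stood in sets of their own, so age and set cannot be told apart in any comparison below.

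The nuclei had a median of 4882 detected genes (range 2022 to 8008), and the medians of the 15 preparations ran from 3732 to 6140. Clustering without the 4 genes gave 167 pyramidal-like, 111 GABAergic-like and 98 glia-like nuclei, and the others were granule-like. Prox1, the transcription factor that marks granule cells, was detected in 87 of 96 granule-like nuclei at 4 weeks, 244 of 248 in DG at 12 weeks and 114 of 120 at 2 years. Calb1, a marker of mature granule cells, was detected in 31 of the 96 nuclei at 4 weeks and in 196 of the 248. Of 17 GABAergic markers, 2 were detected in at least 30% of the 96 nuclei at 4 weeks and the median was 6.25%; Slc32a1, the GABA transporter of vesicles, was detected in 1 nucleus, but Gad1, which makes GABA, in 60 and Gad2 in 17. Gad1 was also detected in 154 of the 248 at 12 weeks. Of 15 pyramidal markers, 1 was detected in at least 30% of the 96, at 91.7%, with a list median of 6.25% and Neurod6 in 6 nuclei. Mbp, a myelin gene, was detected in 60 of the 96 nuclei at 4 weeks and 135 of the 248 at 12 weeks, and its part in the results was not tested.

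All 4 genes lie on the minus strand of GRCm38 (GENCODE vM21). Penk (ENSMUSG00000045573.9) spans chr4:4133531-4138819. Col6a1 (ENSMUSG00000001119.7) spans chr10:76708792-76726168. Rgs4 (ENSMUSG00000038530.11) spans chr1:169741477-169747642. Necab3 (ENSMUSG00000027489.15) spans chr2:154544399-154558890. A830012C17Rik overlaps Penk on the opposite strand, and Actl10 and 1700003F12Rik lie within Necab3 on the opposite strand. These genes share reads with their partners if counting did not use strand, which is not given in the sources used here. A830012C17Rik was detected in 16 of 96 granule-like nuclei at 4 weeks, 3 of 248 in DG at 12 weeks and 6 of 120 at 2 years. Actl10 was detected in 11, 3 and 2 of these nuclei, and 1700003F12Rik in 10, 5 and 4.

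Because the 4 genes were detected together in most granule-like nuclei at 4 weeks, the sequence just before their starts is shown. The bases are those upstream of the annotated gene start in the RefSeq promoter table (GRCm38.p6), written 5′ to 3′ along the minus strand, at chr1:169747643-169747892 for Rgs4, chr2:154558891-154559104 for Necab3 and chr10:76726169-76726294 for Col6a1. Capitals mark matches on either strand to TGACG (part of the cyclic AMP response element), to TATAAA (the TATA box), to GGGCGG (the GC box) and to CCAAT (the CCAAT box); those on the reverse strand are written as they read here.
Rgs4: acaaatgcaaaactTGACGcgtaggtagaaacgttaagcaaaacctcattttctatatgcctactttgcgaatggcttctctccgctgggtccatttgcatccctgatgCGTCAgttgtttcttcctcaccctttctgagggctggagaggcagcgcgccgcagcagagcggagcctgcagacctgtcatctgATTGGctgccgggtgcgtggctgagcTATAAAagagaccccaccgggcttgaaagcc
Necab3: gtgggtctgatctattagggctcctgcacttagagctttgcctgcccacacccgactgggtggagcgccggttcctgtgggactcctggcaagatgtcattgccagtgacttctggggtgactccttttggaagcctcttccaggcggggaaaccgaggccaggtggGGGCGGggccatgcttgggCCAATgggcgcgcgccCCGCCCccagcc
Col6a1: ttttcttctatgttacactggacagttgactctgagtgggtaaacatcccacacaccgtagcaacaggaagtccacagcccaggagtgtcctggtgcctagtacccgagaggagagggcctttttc

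CCAAT was the only motif found in more than 1 window. Rgs4 held TGACG, part of the element TGACGTCA, at 236 and 141 bases before the RefSeq start, from which distances are counted, and TATAAA at 31 bases before it. Of the promoters in the table, 17.8% held TGACG and 12.4% held TATAAA in a window of that length. The RefSeq start of Necab3 lies within the annotated gene, past the end of the window shown. Necab3 held GGGCGG at 83 and 48 bases before it, as did 27.6% of promoters. CCAAT lay 57 bases before the Rgs4 start and 64 before the Necab3 start, as in 33.8% and 30.3% of promoters. The whole element TGACGTCA, found in 1.55% of promoters at the length of the Rgs4 window, and TGANTCA, found in 6.75%, matched none of the 3 windows, and the shorter Col6a1 window matched no motif searched. Necab3 has 2 entries in the table, of which the one with the most upstream start is shown. For Penk, the coding sequence shows what the transcript carries. Transcript Penk-201 holds 7 stretches that code for enkephalin, 6 for Met-enkephalin and 1 for Leu-enkephalin. Each lies just after a pair of basic codons, the sites at which convertases cut. Such a pair also follows 5 of the 7, but not the Met-enkephalin repeats 4 and 7. The first repeat, at coding bases 298 to 312, and the Leu-enkephalin repeat, whose last codon is that of leucine in place of methionine, are given with the enkephalin codons in capitals and the neighbouring codon pairs in lower case.
Met-enkephalin: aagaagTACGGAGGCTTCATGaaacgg
Leu-enkephalin: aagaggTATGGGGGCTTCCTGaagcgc

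Penk was on in most granule-like nuclei at 4 weeks, in few of DG at 12 weeks and in an intermediate share at 2 years. A gene is called on where its deposited value, taken back to the TPM-like scale, was above 1; this is the presence of reads in a nucleus, not a regulatory state. At 4 weeks, Penk was on in 22 of 27 granule-like nuclei of preparation 1 (81.5%) and 52 of 69 of preparation 2 (75.4%). In DG at 12 weeks it was on in 1 of 93, 2 of 40, 3 of 64 and 2 of 51 nuclei of the 4 preparations (1.08%, 5.0%, 4.69% and 3.92%). At 2 years it was on in 12 of 52 (23.1%) and 9 of 68 (13.2%). The lowest 4-week preparation stood above the highest of the 2-year ones, and both of those above all 4 of DG at 12 weeks. Pooled over preparations, the shares were 77.1% of 96 nuclei (95% Wilson interval 67.7 to 84.4), 3.23% of 248 (1.64 to 6.24) and 17.5% of 120 (11.7 to 25.3). These intervals cover counting error only, since nuclei of 1 preparation share their source. The 12-week values here are those of DG. Granule-like nuclei were few in the CA sets at 12 weeks, but Penk was less rare there. It was on in 2 of 9 and 1 of 3 in CA1, and in 0 of 3 and 3 of 11 in CA2/3. The order of 12 weeks and 2 years is thus not shown for granule-like nuclei outside DG.

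The level of Penk followed the same order. The mean of log2(value + 1) over granule-like nuclei was 9.81 and 9.54 in the 4-week preparations, 0.13, 0.50, 0.43 and 0.35 in the 12-week ones, and 2.24 and 1.26 in the 2-year ones. Nuclei in which Penk was on also carried more of it at 4 weeks. Their median was 12.6 on the log2 scale, with an estimated 88.4 reads, against 9.68 and 8.51 reads in DG at 12 weeks, and 10.3 and 24.8 reads at 2 years. The level when on and the share of nuclei on thus both differed, within a table whose values are scaled per transcript length and per nucleus.

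**Figure D1:**
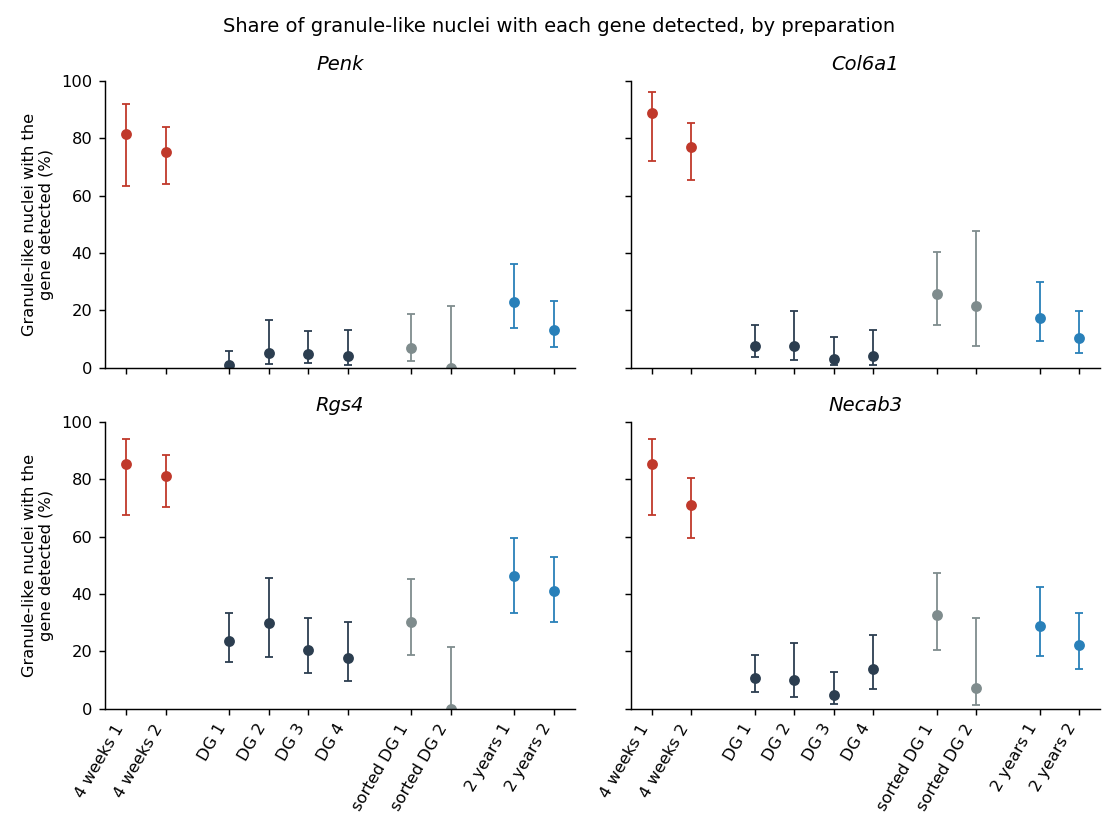
Percent of granule-like nuclei in which each gene was detected (vertical axis), 1 panel per gene, 1 point per preparation along the horizontal axis, with 95% Wilson intervals. The 4-week preparations lie between 71% and 88.9% in every panel, while the DG preparations at 12 weeks lie at or below 5.0% for Penk and between 17.6% and 30% for Rgs4.

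Col6a1 showed the same order of ages as Penk. It was on in 24 of 27 (88.9%) and 53 of 69 (76.8%) granule-like nuclei at 4 weeks, in 7 of 93, 3 of 40, 2 of 64 and 2 of 51 in DG at 12 weeks (7.53%, 7.50%, 3.12% and 3.92%), and in 9 of 52 (17.3%) and 7 of 68 (10.3%) at 2 years. The lower of the 2-year preparations, at 10.3%, lay close above the highest of the 12-week ones, at 7.53%, and both 4-week preparations lay far above all others. Mean levels were 10.46 and 9.05 at 4 weeks, 0.68, 0.47, 0.23 and 0.28 in DG at 12 weeks, and 1.54 and 0.97 at 2 years, on the log2 scale. The median when on was 12.0 with an estimated 199 reads at 4 weeks, 8.94 with 8.56 reads at 12 weeks, and 9.53 with 38.8 reads at 2 years.

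Rgs4 was the member most often on in granule-like nuclei of unsorted DG at 12 weeks and of the 2-year set. At 4 weeks it was on in 23 of 27 (85.2%) and 56 of 69 (81.2%) granule-like nuclei. In DG at 12 weeks it was on in 22 of 93, 12 of 40, 13 of 64 and 9 of 51 (23.7%, 30%, 20.3% and 17.6%). At 2 years it was on in 24 of 52 (46.2%) and 28 of 68 (41.2%). The 3 ages did not overlap in these shares. Mean levels were 9.54 and 8.97 at 4 weeks, 1.99, 2.35, 1.77 and 1.6 at 12 weeks, and 4.25 and 3.67 at 2 years, on the log2 scale. The median when on was 11.6 (an estimated 85.7 reads), 8.92 (9.99 reads) and 9.50 (28.7 reads) at the 3 ages. In 15 of the 56 nuclei of DG at 12 weeks in which Rgs4 was on, the estimate was under 3 reads, against 3 of 79 at 4 weeks.

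Necab3 stood between Penk and Rgs4 at 12 weeks. At 4 weeks it was on in 23 of 27 (85.2%) and 49 of 69 (71%) granule-like nuclei. In DG at 12 weeks it was on in 10 of 93, 4 of 40, 3 of 64 and 7 of 51 (10.8%, 10%, 4.69% and 13.7%), and at 2 years in 15 of 52 (28.8%) and 15 of 68 (22.1%). Mean levels were 9.23 and 7.92 at 4 weeks, 1.04, 0.83, 0.43 and 1.41 at 12 weeks, and 2.88 and 1.97 at 2 years, with no overlap between ages. The median of Necab3 when on was 10.2 both at 12 weeks and at 2 years, though with an estimated 12.8 and 28.2 reads. At 4 weeks that median was 11.2 with 50.5 reads. This likeness of the later medians was not tested.

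All 4 members thus had mean levels higher in both 4-week preparations than in any DG preparation at 12 weeks, where 17.8% of the 10630 genes compared did; nothing is read from this count, since the members were chosen on that contrast. All 4 also had both 2-year preparations above all 12-week ones, where 16.1% of genes did. The contrast of 2 years with 12 weeks was part of the choice too, so nothing is read from this count either. One read was worth less in the deeper libraries: relative depth, the estimated reads behind a unit of value, was 1.47 and 1.21 in the 4-week preparations, between 0.72 and 1.19 in the DG preparations at 12 weeks, and 1.37 and 1.90 at 2 years. In granule-like nuclei alone, median relative depth was 1.38 at 4 weeks, 0.87 in DG at 12 weeks and 1.80 at 2 years. Thinning the members' reads so that 1 read was worth the same in each nucleus is given with the co-detection below, for all 4 genes together. The shares of single genes are given above without thinning. Over 8 other settings, thinning and higher thresholds among them, pooled shares in DG at 12 weeks were 1.21% to 3.64% (Penk) and 1.21% to 6.0% (Col6a1). Those of Rgs4 were 6.05% to 24.6% and those of Necab3 5.24% to 9.84%. At 2 years the ranges were 10.8% to 17.6%, 3.33% to 13.6%, 18.3% to 45.4% and 14.2% to 25.9% in the same order. In glia-like nuclei outside 4 weeks, Penk was on in 4 of 86 (4.65%), Col6a1 in 7 (8.14%), Rgs4 in 23 (26.7%) and Necab3 in 8 (9.30%), at a median of 3440 detected genes. The pooled shares of granule-like nuclei in DG at 12 weeks, at a median of 4724 genes, were 3.23%, 5.65%, 22.6% and 9.68% in the same order. Of the 86 glia-like nuclei, 16 came from DG at 12 weeks and the others from CA, sorted and 2-year sets. Region, strain, sort and age are therefore not matched. In those 16, at least 1 member was on in 7, against 75 of the 248 granule-like nuclei. None of the 4 members stood clearly above its share in the 86. The 12-week shares in DG are thus read as no higher than in that mixed class. Shares in pyramidal-like and GABAergic-like nuclei differed from these and are given below. The source of the 12-week reads was not tested.

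**Figure D2:**
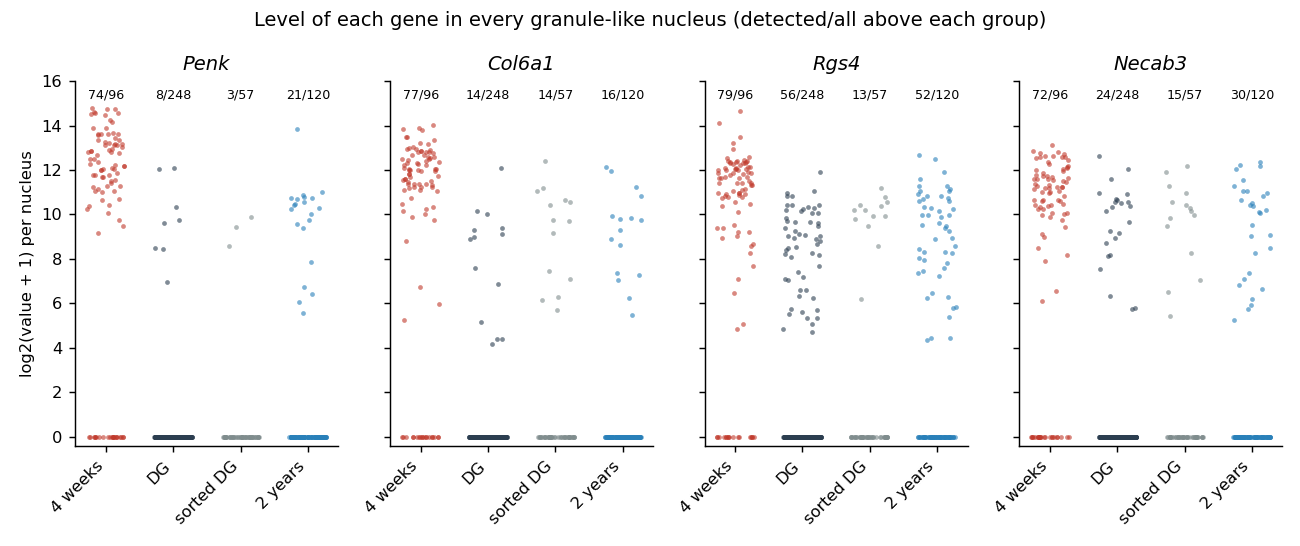
Level of each gene as log2(value + 1) in every granule-like nucleus (vertical axis), 1 panel per gene, 1 point per nucleus, for 4 weeks, DG at 12 weeks, sorted DG at 12 weeks and 2 years, with nuclei on of all nuclei above each group. Off nuclei sit at 0; the on nuclei at 4 weeks have medians of 12.6 (Penk), 12.0 (Col6a1), 11.6 (Rgs4) and 11.2 (Necab3).

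In the limma fit across genes, DG at 12 weeks was lower than 4 weeks by a log2 fold of -9.34 for Col6a1 (SE 0.54), -9.32 for Penk (SE 0.53), -7.64 for Necab3 (SE 0.56) and -7.33 for Rgs4 (SE 0.59), with 4 and 2 preparations. The genes just outside the 4 were Stmn2 at -5.48 and Tmc6 at -5.32. The median over all genes was -0.10. The folds are on the log2(value + 1) scale averaged over nuclei, and so mix the share of nuclei on with the level when on.

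At 4 weeks the 4 genes were mostly on or off together. Of 96 granule-like nuclei, 60 had all 4 on (62.5%, 95% Wilson interval 52.5 to 71.5), 19 of 27 in preparation 1 (70.4%) and 41 of 69 in preparation 2 (59.4%). A further 14 had 3 on, 8 had 2, 4 had 1 and 10 had none. Col6a1 was on in 67 of the 74 nuclei with Penk on (90.5%) and in 10 of the 22 with Penk off (45.5%). Necab3 was on in 69 of the 77 nuclei with Col6a1 on (89.6%) and in 3 of the 19 with it off (15.8%), the widest gap among the 12 ordered pairs. Of the 10 nuclei with none on, the median number of detected genes was 3928, against 5400 in the 60 with all 4, and median relative depth was 0.84 against 1.55. The part of depth in the joint on state was not tested.

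In DG at 12 weeks none of 248 granule-like nuclei had all 4 genes on, which allows a share of up to 1.21%. There, 173 had none, 53 had 1, 17 had 2 and 5 had 3. The most frequent single state was Rgs4 alone, in 35 nuclei, followed by Necab3 alone in 12 and Col6a1 alone in 5, while Penk alone was found in 1. Rgs4 was on in 6 of the 8 nuclei with Penk on (75%) and in 50 of the 240 with Penk off (20.8%). It was on in 9 of the 14 nuclei with Col6a1 on (64.3%) and in 47 of the 234 with it off (20.1%). These counts are small and depth differs between nuclei, so they are a description of these nuclei.

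At 2 years 4 of 120 granule-like nuclei had all 4 genes on (3.33%, 95% Wilson interval 1.30 to 8.26). All 4 came from preparation 1, of 52 nuclei; preparation 2 had 0 of 68, which allows a share of up to 4.41%. A further 10 nuclei had 3 on, 17 had 2, 39 had 1 and 50 had none. Penk was on in 8 of the 16 nuclei with Col6a1 on (50%) and in 13 of the 104 with it off (12.5%). Rgs4 was again the member most often on alone, in 23 nuclei. The 4 genes were also thinned so that 1 read was worth the same in each nucleus, which leaves out the shallowest nuclei. All 4 were then on in 55 of 92 nuclei at 4 weeks (59.8%), 0 of 220 in DG at 12 weeks and 2 of 118 at 2 years.

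**Figure D3:**
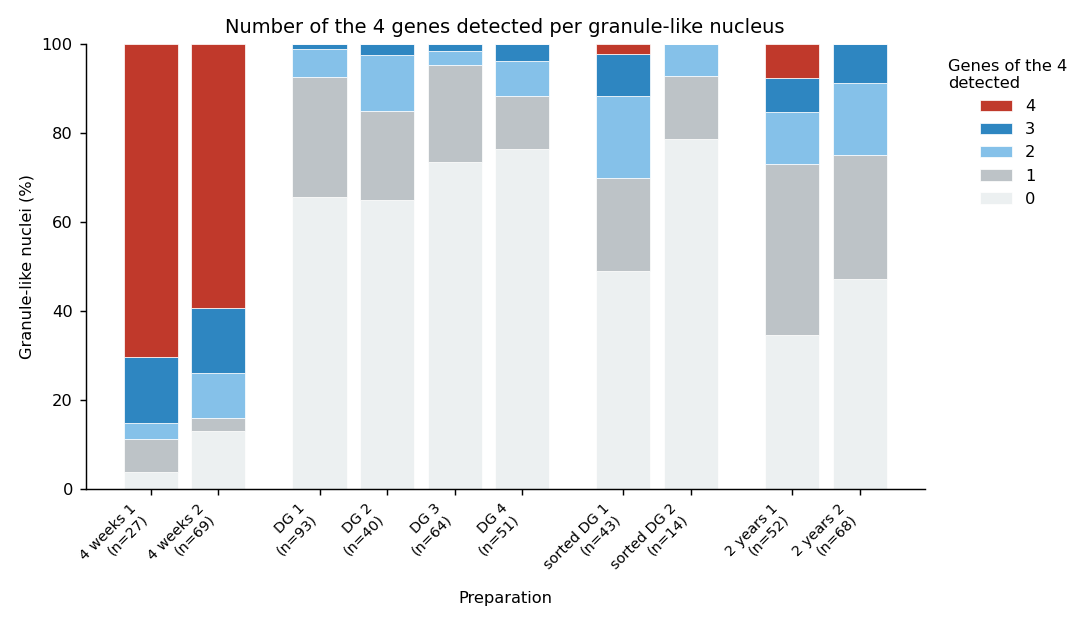
Percent of granule-like nuclei (vertical axis) with 0, 1, 2, 3 or 4 of the genes detected, stacked, 1 bar per preparation. All 4 genes were on in 70.4% and 59.4% of nuclei in the 4-week preparations, in none of the DG preparations at 12 weeks, and at 2 years in 4 of 52 nuclei of preparation 1.

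The 4 nuclei at 2 years with all 4 genes on did not share 1 profile. In the first, the log2 values of Penk, Col6a1, Rgs4 and Necab3 were 6.06, 9.94, 7.94 and 5.77, and Penk and Necab3 each rested on an estimated 1.02 reads. In the second they were 9.57, 5.47, 11.91 and 12.36, with 5.98 estimated reads of Col6a1. The third had 11.03, 9.83, 10.72 and 10.66, with at least 27.8 reads of every member, and is the only one of the 4 in which no member rested on few reads. The fourth had 5.57, 11.21, 12.65 and 11.08, with 1.02 reads of Penk. At a higher threshold, a value of 1000 in place of 1, no nucleus at 2 years had all 4 genes on, while 39 of the 96 at 4 weeks still did (40.6%).

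Outside 4 weeks, 40 nuclei of any class had at least 3 of the 4 genes on. Among them, 14 were granule-like nuclei at 2 years, 8 in preparation 1 and 6 in preparation 2, and 5 were granule-like nuclei of DG at 12 weeks. Of those 5, the nucleus with the highest Penk had log2 values of 12.05 for Penk, 9.31 for Col6a1 and 8.17 for Rgs4, with Necab3 off. Another, in preparation 2, had 9.74, 10.14 and 11.05 for the same genes. Few granule-like nuclei on at later ages were above the 4-week median of granule-like nuclei on: in DG at 12 weeks 0 for Penk, 1 for Col6a1, 1 for Rgs4 and 3 for Necab3, and at 2 years 1, 1, 3 and 6. The highest Penk value in a granule-like nucleus was 13.86 at 2 years, above the 4-week median of 12.6, and 12.09 in DG at 12 weeks.

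A cluster found with the 4 genes left out had them as its 4 leading genes by fold. Most of its nuclei came from 4 weeks, the age at which the members were chosen as high, so nothing is read from that lead. This cluster of 101 nuclei held 83 of the 96 granule-like nuclei at 4 weeks (24 of 27 and 59 of 69), 12 of 52 nuclei of preparation 1 at 2 years, 1 of 68 of preparation 2, 4 of 93 nuclei of 1 DG preparation at 12 weeks, and 1 sorted DG nucleus. Of its 12 nuclei from preparation 1 at 2 years, none had all 4 genes on and 1 had 3 or more. Conversely, 7 of the 13 granule-like nuclei at 4 weeks outside the cluster had all 4 on. The cluster carried 8 of the 14 granule cell markers fixed for naming; at a resolution of 0.6, 83 of the 96 nuclei fell in a cluster that stayed unnamed, so the granule-like name of the 4-week nuclei rests on the resolution of 1.0.

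Among all 924 nuclei, 67 had all 4 genes on: 65 were granule-like, 1 was GABAergic-like in sorted CA, and 1 was astrocyte-like at 2 years. None of 167 pyramidal-like nuclei did, which allows a share of up to 1.80%. The members were nevertheless on singly in other classes. In pyramidal-like nuclei outside 4 weeks, Penk was on in 17 of 163 (10.4%), Col6a1 in 50 (30.7%), Rgs4 in 78 (47.9%) and Necab3 in 47 (28.8%). Col6a1 was not sparse there: when on it had a median of 142 estimated reads. In GABAergic-like nuclei outside 4 weeks, Penk was on in 12 of 110 (10.9%), Col6a1 in 3 (2.73%), Rgs4 in 14 (12.7%) and Necab3 in 31 (28.2%). Of 18 GABAergic-like nuclei in DG at 12 weeks, 2 had Penk on, with values of 11.85 and 14.4 and a median of 13.1 on the log2 scale, beside 12.6 in the granule-like nuclei on at 4 weeks.

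Of the 133 nuclei sorted from DG of the vGAT-Cre mice, 57 had a granule-like and not a GABAergic-like profile. In these nuclei the members departed from the unsorted DG nuclei in part. Penk was on in 3 of 43 and 0 of 14 nuclei of the 2 preparations, Col6a1 in 11 and 3, Rgs4 in 13 and 0, and Necab3 in 14 and 1. Pooled, this is 5.26%, 24.6%, 22.8% and 26.3% of 57 nuclei. Col6a1 stood above its shares in DG at 12 weeks in both preparations (25.6% and 21.4%). Necab3 did so in the first alone (32.6%, against 7.14% in the second). Strain, virus, sort and set cannot be told apart, and these differences were not tested. One of these nuclei had all 4 genes on, with log2 values of 9.91, 9.18, 10.57 and 10.27.

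At 12 weeks the members were compared between regions in granule-like and pyramidal-like nuclei combined, to ask where in the hippocampus each was highest. Mean levels of Penk were 0.11, 0.50, 0.42 and 0.34 in the 4 DG preparations, 2.5 and 1.37 in CA1, and 0.46 and 1.13 in CA2/3, so CA1 was highest. The CA values are not those of pyramidal-like nuclei alone. Granule-like nuclei were 9 of 43 in CA1 preparation 1 and 11 of 45 in CA2/3 preparation 3. In those 11 the mean of Penk was 2.76, so part of the 1.13 came from granule-like nuclei. Col6a1 was highest in CA2/3, at 3.35 and 3.47, against 1.83 and 2.27 in CA1 and 1.76, 0.47, 0.22 and 0.49 in DG. In the DG preparation at 1.76, 11 of 19 pyramidal-like nuclei had Col6a1 on (57.9%), with a median of 261 estimated reads, so part of its DG value came from pyramidal-like nuclei. Rgs4 was highest in CA1, at 5.29 and 4.86, against 2.40, 2.35, 1.87 and 1.72 in DG. Its CA2/3 preparations lay far apart, at 4.58 and 1.15. Necab3 was at 2.68 and 3.28 in CA1, 2.23 and 1.66 in CA2/3, and 1.23, 0.83, 0.43 and 1.49 in DG.

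**Figure D4:**
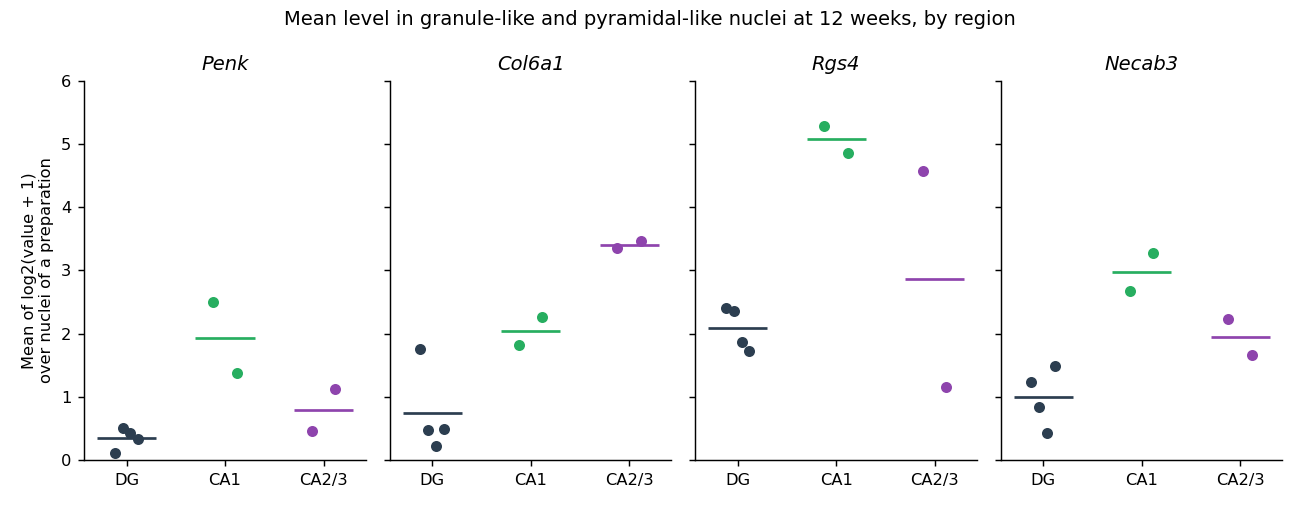
Mean of log2(value + 1) over granule-like and pyramidal-like nuclei at 12 weeks (vertical axis) in DG, CA1 and CA2/3, 1 panel per gene, 1 point per preparation. Rgs4 is highest in CA1 (5.29 and 4.86) and Col6a1 in CA2/3 (3.35 and 3.47), and the CA2/3 points of Rgs4 lie at 4.58 and 1.15.

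Between CA1 and CA2/3, no member passed limma's test at an adjusted p of 0.05, while 3 of the 4 had an unadjusted p under 0.05, as did 898 of 11324 genes. Called genes were also few over the whole table, 19 or 0.168%. The log2 fold of CA1 over CA2/3 was 1.14 for Penk (SE 0.41, limma adjusted p = 0.462), -1.36 for Col6a1 (SE 0.54, 0.531), 2.21 for Rgs4 (SE 0.87, 0.529) and 1.03 for Necab3 (SE 0.50, 0.652), with 2 preparations a group and a spread shared with DG. Without CA2/3 preparation 1 the fold of Rgs4 was 3.93 and without preparation 3 it was 0.50, so its size rests on that choice. The DG preparations entered the choice of members, so the folds of DG over the other regions carry no test. Against CA1 they were -2.99 for Rgs4 (SE 0.75), -1.99 for Necab3 (SE 0.43), -1.59 for Penk (SE 0.36) and -1.31 for Col6a1 (SE 0.47), where the median of all genes was -0.51. Against CA2/3 they were -2.67 for Col6a1 (SE 0.47), -0.95 for Necab3, -0.78 for Rgs4 and -0.45 for Penk, where the median of all genes was -0.42, so only Col6a1 stood far from it in size.

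The partners of the 4 genes were read from fixed lists, in granule-like nuclei of DG at 12 weeks against 4 weeks. Over all genes, limma called 1052 of 10630, or 9.90%, with 5.79% of all genes lower at 12 weeks and 4.10% higher. For the peptide pathway, Pdyn was the only other opioid precursor tested and did not pass (log2 fold 1.17, adjusted p = 0.163), nor did the receptor genes tested, Oprd1 (-0.70) and Oprl1 (0.76). Of 5 genes of prohormone processing, 2 fell and none rose. They were Scg5, the chaperone of convertase 2 (-2.28, SE 0.66, limma adjusted p = 0.0218), and Ctsl, a protease able to process proenkephalin (-1.69, SE 0.50, 0.0242). The list had a median of -0.76, beside -0.10 over all genes.

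Among collagen VI genes, Col6a2, the alpha 2 chain that assembles with the product of Col6a1, was the only other chain tested. It fell with it, from 2.25 ± 0.65 (SD, n = 2) at 4 weeks to 0.19 ± 0.13 (SD, n = 4) in DG at 12 weeks (log2 fold -2.06, SE 0.31, limma adjusted p = 2e-05). Itgb1, the integrin beta 1 subunit of collagen receptors, also fell (-1.29, SE 0.36, 0.0155), as the only tested gene of its list. Necab2, the relative of Necab3, fell from 4.13 ± 1.30 (n = 2) to 1.72 ± 0.37 (n = 4), with a limma adjusted p of 0.00165, whereas Necab1 was at 0.32 (adjusted p = 0.631). None of 3 Mint adaptor genes, the family of the Necab3 partner Apba2, passed.

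For Rgs4, neither of the 2 other R4 genes tested passed: Rgs2, a regulator of Gq, was at -0.09 (adjusted p = 0.927) and Rgs8 at 0.15 (adjusted p = 0.911). None of 7 G alpha genes passed, with a median of -0.21. Of 10 immediate early genes and related activity genes tested, 4 fell and none rose. These were Bdnf, a secreted growth factor (-2.95, SE 0.67, limma adjusted p = 0.00332), Arc, a synaptic protein (-1.45, SE 0.28, 0.000616), Fosl2, a partner of Jun proteins (-1.72, SE 0.47, 0.0143), and Inhba, the activin A subunit (-1.34, SE 0.38, 0.0182). Arc was at 1.64 ± 0.25 (SD, n = 2) at 4 weeks and 0.19 ± 0.05 (n = 4) at 12 weeks. Egr1 (-0.83) and Junb (-0.84) did not pass. Of the 9 list genes called between these ages, Col6a2 was tested in all 8 fits that left out 1 preparation, with folds from -2.52 to -1.60. Arc was tested in 7 of these fits, with folds from -1.63 to -1.42. The fit without the 4-week preparation where Arc was higher (1.82) did not test Arc. None of the 9 passed under every setting: with the mean taken before the log, the limma adjusted p was 0.0625 for Arc and 0.0535 for Col6a2. Without 4-week preparation 1 the limma adjusted p was 0.123 for Necab2, 0.0713 for Bdnf, 0.329 for Fosl2, 0.367 for Itgb1, 0.296 for Scg5, 0.132 for Inhba and 0.108 for Ctsl.

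Between DG and CA1, limma called 11.6% of the 11324 genes, 9.43% lower and 2.15% higher in DG; by scaling, the higher share of the calls moved from 243 of 1311 to 600 of 1231 with quantile normalization. Pdyn, the dynorphin precursor, was higher in DG (2.61 ± 0.61, SD, n = 4) than in CA1 (0.48 ± 0.68, n = 2), with a fold of 2.12 (SE 0.44, limma adjusted p = 0.00805). The adjusted p was 0.0717 without CA1 preparation 3 and 0.117 with the mean taken before the log. It was also called higher in DG than in CA2/3, where it is listed at 0 in both preparations (adjusted p = 0.0035), where 7.69% of genes were called, 5.87% lower and 1.82% higher in DG. The untested order of Penk between DG and CA1 was the opposite. Cpe, the carboxypeptidase that finishes both peptides, was lower in DG (7.18 ± 0.70) than in CA1 (11.3 ± 1.3) and CA2/3 (11.2 ± 1.7), with limma adjusted p of 0.00274 and 0.00438; the second was 0.051 without CA2/3 preparation 1. In all, 4 of 5 processing genes were lower in DG than in CA1, of which Cpe was called when any 1 preparation was left out.

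Immediate early and related activity genes were mostly lower in DG than in CA1. Of 15 tested, 10 were lower and 1 higher in DG than in CA1, with a list median of -2.5 beside -0.51 over all genes. Arc was at 0.27 ± 0.08 (SD, n = 4) in DG, 5.09 ± 1.26 (n = 2) in CA1 and 3.97 ± 0.60 (n = 2) in CA2/3. Fos (-2.08), Junb (-4.12), Egr1 (-4.21), Nr4a1 (-4.20) and Dusp1 (-2.88) were among those lower, with limma adjusted p between 0.000199 and 0.00191. Jun was the exception, higher in DG (6.59 ± 0.65) than in CA1 (3.17 ± 0.78), with a fold of 3.43 (SE 0.65, limma adjusted p = 0.00466). Against CA2/3, Arc (-3.69) and Nr4a3 (-4.04) were lower in DG when any 1 preparation was left out, but with the mean taken before the log the adjusted p was 0.0524 and 0.0873. No gene of any list passed between CA1 and CA2/3.

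Genes whose pattern was most like each member were ranked by the mean Spearman rho over nuclei within each of the 4 DG preparations at 12 weeks, over 248 granule-like nuclei and 10730 genes. The values are a description: nuclei of a preparation share library depth, and a member on in few nuclei gives unstable ranks. For Penk they were Klhl40 (0.40), Adrb1 (0.28), Tvp23b (0.26), Rgs4 (0.25) and Rnf40 (0.25). For Col6a1 the leading ones were 4932413F04Rik (0.33), 8030462N17Rik (0.30) and 4933426D04Rik (0.30), with Rgs4 at 0.26. For Rgs4 they were Brms1 (0.33), Kif17 (0.33), Gsg1l (0.31), Atg13 (0.28) and Plk5 (0.27), and for Necab3 none exceeded 0.25, that of Trpc6 and Slc4a10. With 8 nuclei on for Penk and 14 for Col6a1, these ranks rest on very few nuclei. At 4 weeks, with 96 nuclei of 2 preparations, the leading genes were other ones: Cacna2d2 for Penk (0.54), Rnf112 for Col6a1 (0.53), Nefl for Rgs4 (0.65) and Syn2 for Necab3 (0.51); Rgs4 was among the 5 most like Penk at both ages.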

How the data were processed

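The deposited table holds the natural log of a TPM-like value plus 1 for each gene and nucleus, as its values show; the authors used RSEM 1.27 and Bowtie2 with mm10 (GRCm38), per the submitters' processing notes. The log base was checked on the steps of low values. Values were turned into log2(value + 1), and a gene was called detected above a value of 1. Reads of the 4 genes were estimated from the smallest steps of their values; within a tolerance of 0.1, where 20% would be whole if values were spread evenly, 91.4% of 35 low values of Penk, 97.1% of 34 of Col6a1, 99.1% of 114 of Rgs4 and 68.1% of 91 of Necab3 came out whole, but 61.1% of low values over 14618 genes, so no count test was run.

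Nuclei were clustered with scanpy 1.11.5 and leidenalg 0.10.2 (2000 variable genes without the 4 members, 20 principal components, 15 neighbours, resolution 1.0) and named from marker lists; no doublets were called or removed. Means over nuclei of each preparation with at least 10 nuclei went into 2 limma fits (version 3.58.1, R 4.3.3), 2-sided and with a trend in the variance: granule-like and pyramidal-like nuclei of DG, CA1 and CA2/3 at 12 weeks, and granule-like nuclei at 3 ages. Genes detected in at least 20% of nuclei of 1 preparation entered, and p-values were adjusted by Benjamini-Hochberg over all of them at 0.05. Limma's fits were tested on simulated data. Named genes were the 4 members, every gene of lists fixed for their pathways, and the 5 genes most like each member among those detected in at least 10% of nuclei. The members, lists and tests were chosen with earlier results of these data known. Alternatives were a pseudocount of 10, no filter, quantile normalization, all nuclei, the log2 of the mean value, a covariate for detected genes, a replicate block, other detection thresholds, a resolution of 0.6 and leaving out each preparation. Python 3.11.15 was used.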

Additional observations from a re-analysis of the deposited data

How the results depend on the processing

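Of the genes tested between 12 and 4 weeks, 9.90% were called. The share was 5.88% with the log2 of the mean value and 5.42% to 12.0% leaving out 1 preparation, under 7% only without 4-week preparation 1. Of the calls, 41.4% were higher at 12 weeks, against 63.9% with the number of detected genes as covariate, 61.9% with the log2 of the mean value and 20.6% with no filter. DG against CA1 (11.6%) gave 2.23% with the log2 of the mean value, 6.74% with the replicate block, and 5.65% to 18.03% leaving out 1 preparation: at most 6.99% without any 1 of DG, and above 18% without either of CA2/3. Calls higher in DG were 18.5% of these, against 58.8% with the covariate, 48.7% with quantile normalization, 37.2% when the mean was taken before the log and 32.4% with all nuclei. DG against CA2/3 (7.69%, of which 23.7% higher) gave 0.918% with the log2 of the mean value, 15.7% with the covariate (61.1% higher), 4.12% with the replicate block and 2.98% to 12.8% leaving out 1 preparation, each of which moved the count by over 1.5 times; 52.9% were higher with quantile normalization. CA1 against CA2/3 (19 genes, 0.168%) gave 0.0449% with all nuclei, 0 with the log2 of the mean value, 0.150% of a larger table with no filter (32 genes), 1.28% with the covariate, 0.256% with quantile normalization, 0.238% with the replicate block, and 0.0177% to 0.660% leaving out 1 preparation, lowest without any 1 of DG. The labels do not say that same-numbered preparations are paired, so the numbers were not treated as pairs in the main fits. Deviations of same-numbered preparations correlated at -0.01 and -0.09 between DG and CA1, and at 0.10 and -0.06 between DG and CA2/3. Between CA1 and CA2/3 the correlation was 0.41, 1 value since each has 2 preparations. That value cannot decide whether same-numbered CA1 and CA2/3 preparations share a source.

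The fold of Rgs4 between DG and CA2/3 reversed, to 0.84 with the covariate and 0.93 without CA2/3 preparation 1, in a range of -2.49 to 0.93. That of Scg5 between DG and CA1 was 0.042 with the covariate. CA1 over CA2/3 ranged from 0.81 to 1.71 (Penk), -1.58 to -1.14 (Col6a1), 0.50 to 3.93 (Rgs4) and 0.73 to 1.34 (Necab3) leaving out 1 preparation, with adjusted p from 0.0588 to 0.942 over all settings and genes. The causes were not tested. Shares on in DG at 12 weeks fell at a threshold of 1000, to 1.21% (Penk), 1.21% (Col6a1), 6.05% (Rgs4) and 5.24% (Necab3). At 2 years that threshold gave 10.8%, 3.33%, 18.3% and 14.2% in the same order. Leaving out 1 preparation, the 12-week shares were 2.72 to 4.52, 4.52 to 6.52, 21.2 to 23.9 and 8.63 to 11.4. At 4 weeks the share with all 4 on was 71.8% among nuclei with at least 4000 genes. At a resolution of 0.6, 13 of the 4-week nuclei were named granule-like, 7 with all 4 on; counting unnamed clusters it was 60 of 101. Thinning to 20000 reads was not run, since whole reads were not recovered for most genes.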
